A study of Rattus norvegicus with 20 samples.

Results

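Methylation was described here for 3 stretches of the rat genome of 1 megabase each, at chr3:57000001-58000000, chr4:80000001-81000000 and chr7:141000001-142000000 in build rn4. These megabases were expected to hold the Hoxd, Hoxa and Hoxc clusters. That expectation could not be checked, because the array files name no genes and no rn4 gene annotation was used here, so the stretches are called by their chromosome. The intervals were chosen with the difference between carcinomas and normal glands on these same arrays in view. Every difference between these groups inside the intervals is therefore a description and carries no test. The intervals held 573 of the 93024 probes, 555 of which had input signal well above background on at least 10 arrays. Probes starting at most 500 bases apart were joined into 96 of the 16436 runs on the array, numbered run1 to run96 in order along the 3 intervals. Of these, 88 had at least 3 probes (20 on chromosome 3, 28 on chromosome 4 and 40 on chromosome 7), against 13556 runs of that size in all. The other 8 runs had 1 or 2 probes and were left out of the counts.

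Hox genes encode homeodomain transcription factors that give cells their place along the body axis, and they lie side by side in clusters crowded with CpG islands. In many differentiated tissues these islands are unmethylated and covered by Polycomb proteins, which hold genes silent. Islands of Hox clusters are a well known site of gained DNA methylation in tumours, breast carcinoma included. A methyl-CpG-binding protein captures DNA in proportion to its methylated CpGs, so a stretch with few CpGs gives little signal whether or not it is methylated.

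The number of CpGs varies from promoter to promoter within these gene families. RefSeq (assembly GRCr8) lists 9 Hoxd, 11 Hoxa and 9 Hoxc genes on chromosomes 3, 4 and 7, and the promoter table matched 9, 9 and 1 of them. The promoters of Hoxd9 and Hoxa9, the group 9 members of their clusters, are printed 5′ to 3′ in 300 bases each, with every CpG in capitals. GRCr8 is not the build of the arrays, so no probe or run is tied to either sequence.
Hoxd9: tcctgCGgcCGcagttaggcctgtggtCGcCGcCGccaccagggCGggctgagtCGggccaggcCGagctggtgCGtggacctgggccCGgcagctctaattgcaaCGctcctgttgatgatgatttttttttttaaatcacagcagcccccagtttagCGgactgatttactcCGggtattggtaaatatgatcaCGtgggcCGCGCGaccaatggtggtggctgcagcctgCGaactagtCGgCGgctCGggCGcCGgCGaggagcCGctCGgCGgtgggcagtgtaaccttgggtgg
Hoxa9: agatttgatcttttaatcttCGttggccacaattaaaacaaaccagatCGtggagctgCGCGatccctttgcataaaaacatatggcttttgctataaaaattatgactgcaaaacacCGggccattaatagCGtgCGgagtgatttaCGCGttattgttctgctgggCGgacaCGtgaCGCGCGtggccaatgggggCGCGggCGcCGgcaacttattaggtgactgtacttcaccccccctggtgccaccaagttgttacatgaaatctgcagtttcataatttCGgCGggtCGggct
Hoxd9 holds 27 CpGs in this window and Hoxa9 holds 21. The median over 33469 RefSeq promoters was 7, and 13.9% and 22.6% of them hold at least as many. Hoxd promoters ran from 12 to 49 CpGs (median 25) and Hoxa promoters from 9 to 42 (median 21.5), so the families overlapped widely. The 1 matched Hoxc promoter held 6, which is too little to describe that cluster.

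The study compared 16 mammary carcinomas, labelled as induced by radiation, with 4 normal mammary glands. All came from female F1 hybrid rats from a cross of Sprague-Dawley with Copenhagen. The treatment text is shared by all samples and names untreated rats as well as rats given 4 Gy of 137Cs gamma rays at 7 weeks of age, at 0.5 Gy per minute. The labels leave unstated whether the normal glands came from irradiated rats, so tumour state and irradiation cannot be told apart. Each tissue was hybridised to 1 two-colour CpG island array, with the methyl-CpG-binding-domain fraction in Cy5 and the input DNA of the same tissue in Cy3. Animals are not named in the labels. Spread between samples, which p-values rest on, may therefore be partly technical. For carcinomas 7 and 8 the sample code of the label differs from that in the name of the scanner file. Both codes belong to carcinomas, and the lead values are given without them as well. Whole tissue was used, so the share of tumour cells in a sample and the methylation per cell cannot be told apart.

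Values are given on 2 scales, and x ± y stands for the mean and SD over the 4 normal glands (n = 4) or the 16 carcinomas (n = 16). The log2 ratio is log2 of Cy5 over Cy3 with the median of the array removed. The linear position places the unlogged ratio of a run between the most common level of all runs of its array, set to 0, and the most common level among the top 15% of runs, set to 1. The scales can differ in direction, since the arrays differ in range. This upper mode stood at a log2 ratio of 4.67 ± 0.81 on normal arrays and 2.72 ± 0.49 on carcinoma arrays, and the groups did not overlap. A linear position of 0.5 thus stood at a log2 ratio of 3.72 on normal arrays and 1.88 on carcinoma arrays. Whether the narrower range of the carcinoma arrays comes from the tissue or from the capture was not tested. Median raw signal per array ran from 62 to 128.5 in Cy5 and from 73 to 136 in Cy3. In the intervals no probe was saturated, and 12 kept probes were never well above Cy5 background in normal glands, while every kept interval probe was so in at least 1 carcinoma.

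The intervals were unevenly filled. Chosen by probe positions alone, the densest 100 kilobases were chr3:57263894-57363893, chr4:80458417-80558416 and chr7:141698919-141798918. They held 77.2%, 70.1% and 50.2% of the kept probes of their intervals, in 15, 18 and 19 runs of at least 3 probes. Among 2199 megabases with probes, the chromosome 7 interval ranked 13 by number of probes, the chromosome 4 interval 33 and the chromosome 3 interval 155. The median megabase held 28.

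Normal glands come first. The mean log2 ratio over the probes of the chromosome 3 interval was 2.48, 1.66, 1.65 and 1.37 in normal glands 1 to 4. In its flanks, the megabase on either side, it lay between -0.15 and -0.09, so the interval stood above its surroundings on every normal array. On chromosome 4 the interval was at 2.06, 1.23, 1.28 and 0.86, with flanks between 0.14 and 0.41. On chromosome 7 it was at 1.44, 1.05, 1.08 and 0.72, while its flanks ran from 0.96 to 1.35, an overlapping range. Of the 88 interval runs, 19 had a mean linear position between 0.2 and 0.5 in normal glands (21.6%), against 598 of all 13556 runs (4.41%). Only 1 interval run was over 0.5 in every normal gland (1.14%), against 1463 of all runs (10.8%).

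The mean level of the intervals is given on both scales. In log2 ratio the chromosome 3 interval averaged 1.79 ± 0.48 in normal glands and 1.79 ± 0.42 in carcinomas. The chromosome 4 interval averaged 1.36 ± 0.50 and 1.59 ± 0.45, and the chromosome 7 interval 1.07 ± 0.30 and 1.06 ± 0.30. In each interval the carcinomas overlapped the normal glands. These log2 differences rested on single normal glands. Without normal gland 1 they were 0.23, 0.47 and 0.11 on chromosomes 3, 4 and 7, and without normal gland 4 they were -0.14, 0.07 and -0.13. In linear position the groups did not overlap in any interval. Runs of the chromosome 3 interval averaged 0.178, 0.255, 0.184 and 0.183 in normal glands 1 to 4, and 0.344, 0.567 and 0.853 in the lowest, median and highest carcinoma. On chromosome 4 the mean was 0.134, 0.184, 0.137 and 0.149 in normal glands, against 0.250 to 0.70 in carcinomas with a median of 0.482. On chromosome 7 it was 0.0929, 0.166, 0.125 and 0.0865, against 0.18 to 0.475 with a median of 0.352. Carcinoma 8 was highest in each interval on this scale, and carcinoma 2 or 3 lowest. All other runs went from 0.140 ± 0.00739 to 0.204 ± 0.0321, with 15 of 16 carcinomas past the highest normal gland. The mean percentile of interval runs among all runs of their array, a scale added after the data were seen, does not use the modes. It went from 71.1 to 78.9 on chromosome 3 and from 69.5 to 77.0 on chromosome 4, without overlap. On chromosome 7 the groups overlapped, at 63.7 ± 2.02 and 65.3 ± 2.47, with 11 of 16 carcinomas above every normal gland and 1 below.

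The flanks are given for comparison. On chromosome 3 the flanks stood at a linear position of 0.0185 ± 0.00516 in normal glands against 0.0660 ± 0.0307 in carcinomas. On chromosome 4 these values were 0.112 and 0.224, and on chromosome 7 they were 0.251 and 0.310. Interval minus flank on chromosome 7 went from -0.133 ± 0.0233 to 0.0441 ± 0.0531, without overlap. In linear position the interval thus lay below its flanks in every normal gland. In log2 ratio, interval minus flank was 0.09, 0.09, 0.12 and -0.31 in normal glands 1 to 4, so there it did so in gland 4 only. These log2 values average probes, while the linear positions average runs of at least 3 probes, so the unit differs as well as the scale. In log2 ratio the chromosome 7 flanks were at 1.07 ± 0.19 in normal glands against 0.50 ± 0.12 in carcinomas, lower in 16 of 16, while the interval means differed by -0.01.

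**Figure D1:**
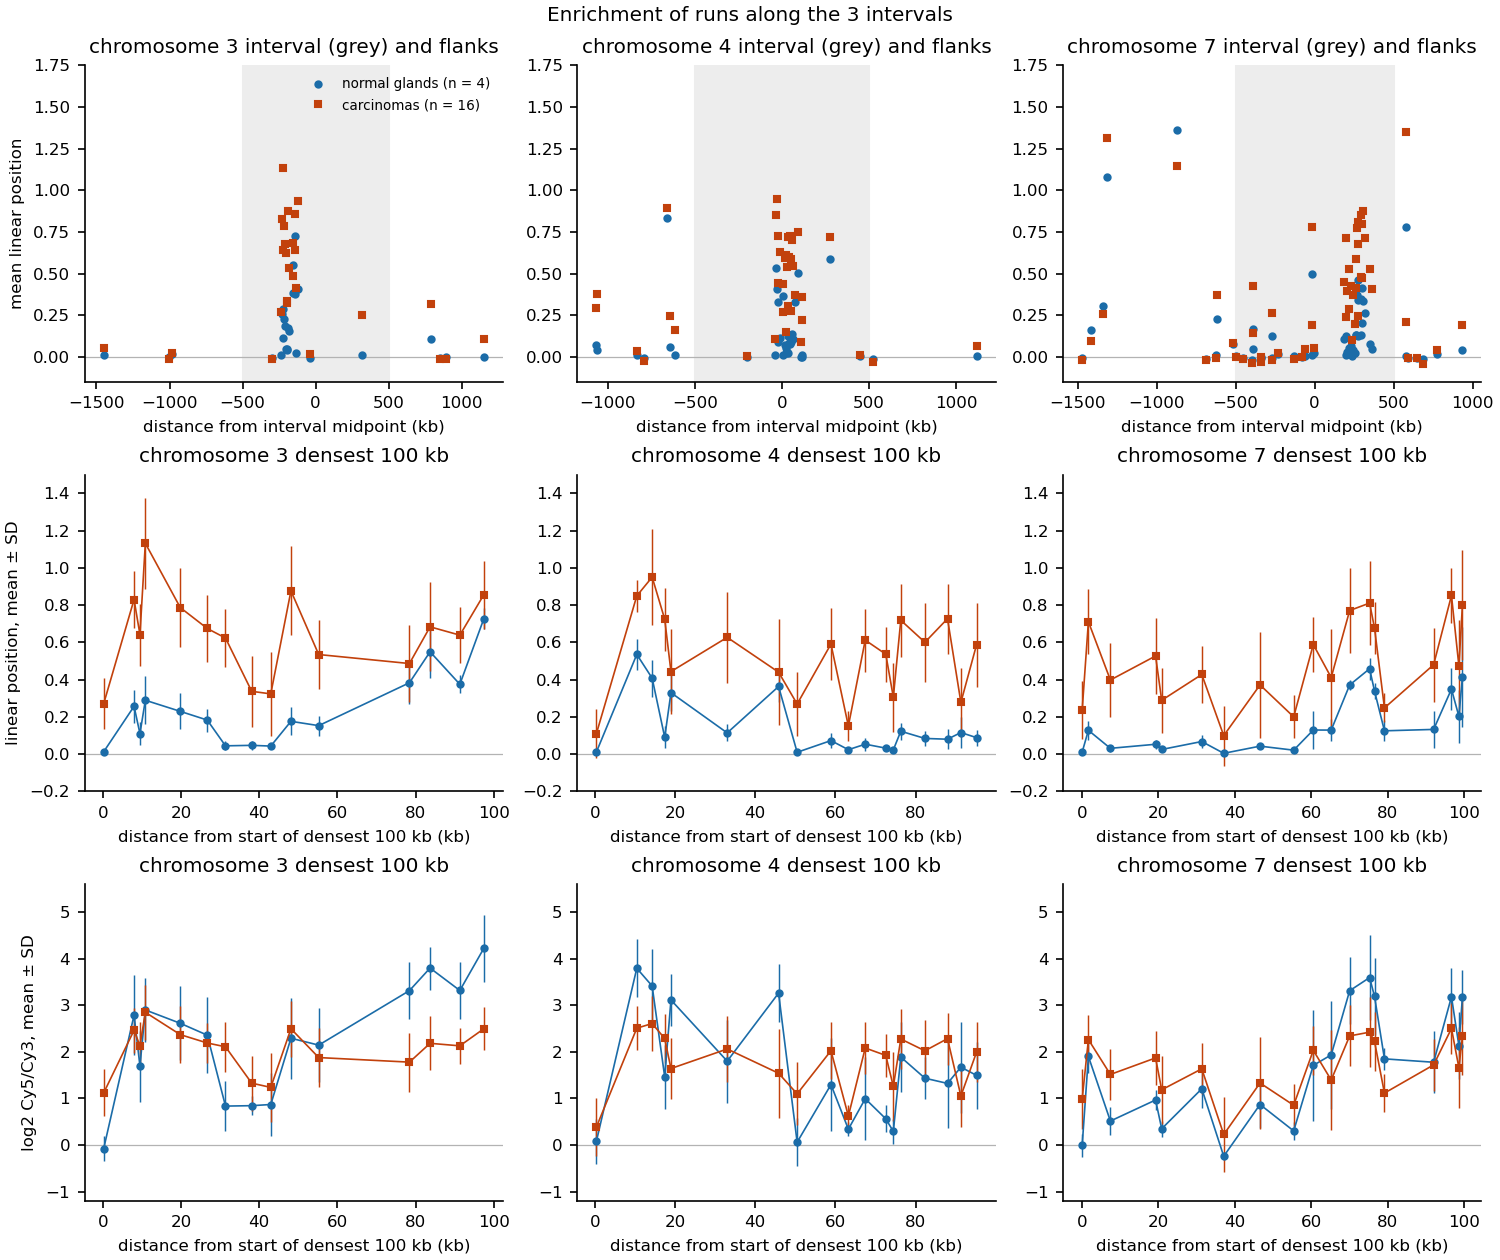
Mean linear position of each run of at least 3 probes along the 3 intervals (grey) and their flanks (top), and linear position and log2 Cy5/Cy3 within the densest 100 kilobases (middle and bottom, mean ± SD over 4 normal glands and 16 carcinomas), against distance in kilobases. In the densest windows the carcinoma means lie above the normal means in linear position at every run, while in log2 ratio they lie above at 29 runs and below at 23.

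How many runs differed depended on the scale. A fit with limma over all 13556 runs, with a call at a Benjamini-Hochberg adjusted p under 0.05, was used to count runs. In log2 ratio it called 17 of the 88 interval runs higher in carcinomas (19.3%), where it called 11.6% of all runs higher, and 17 lower (19.3%), where it called 23.7% of all runs lower. In linear position it called 50 interval runs higher (56.8%), beside 17.1% of all runs, and 0 lower, beside 4.43% of all runs. At an unadjusted p under 0.05, 1 interval run was lower in linear position. As a percentile of the run among all runs of its array, a scale added after the data were seen, 29 interval runs were called higher and 3 lower, beside 8.68% and 11.0% of all runs. The intervals were chosen on this contrast, so nothing is read from these counts, nor from the call or SE of any single run. Most runs named below were also picked by their values on these arrays. In the flanks 5 of 32 runs were called higher in linear position and 2 lower.

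The counts of calls moved with single normal glands and with normalization. In linear position 30 interval runs were called higher without normal gland 1, and 33 without normal gland 3 and also without normal gland 4. Over all runs the 2318 such calls became 951, 1142 and 1148. In log2 ratio 10 were called higher without normal gland 3 and 8 without normal gland 4, where all runs gave 976 and 1143 in place of 1576. Without carcinomas 7 and 8, linear position gave 47 higher and 0 lower (2085 and 556 over all runs). Log2 ratio then gave 19 higher and 19 lower (2078 and 3277 over all runs). After loess within each array, log2 ratio gave 29 higher and 4 lower (1301 and 1447 over all runs), and linear position 27 higher and 11 lower (2226 and 1705). After quantile normalization, log2 ratio gave 35 higher and 3 lower (1227 and 1996), and linear position 25 higher and 2 lower (772 and 1227).

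Within the densest windows, 39 of 52 runs (75.0%) were called higher in linear position. These were 11 of 15 on chromosome 3, 14 of 18 on chromosome 4 and 14 of 19 on chromosome 7. Outside them 11 of 36 interval runs (30.6%) were called, beside 17.1% of all runs. In log2 ratio the calls higher were 11 of 52 (21.2%) inside and 6 of 36 (16.7%) outside, beside 11.6% of all runs. In linear position 35 of the 88 interval runs were above every normal gland in all 16 carcinomas (beside 9.26% of all runs), 8 on chromosome 3, 14 on chromosome 4 and 13 on chromosome 7. In log2 ratio 4 interval runs were above every normal gland in all 16 (beside 1.76% of all runs) and 5 were below (beside 15.6%).

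The calls are also given by level in normal glands, as a description, since that level is a term of the difference called. The 17 runs called lower in log2 ratio had normal means with a median of 3.32, and the 17 called higher had a median of 0.29. Of the 19 interval runs with a normal mean log2 ratio of at least 3, log2 ratio called 14 lower (73.7%) and 0 higher, and linear position called 10 higher (52.6%). Over all 2015 runs at that level these shares were 97.6%, 0% and 23.3%. Of the 38 with a normal mean from 0 to 2, log2 ratio called 10 higher (26.3%) and 2 lower (5.26%), and linear position called 27 higher (71.1%). Over all 3660 such runs the shares were 7.73%, 24.9% and 34.3%. Calls of opposite direction, a lower log2 ratio with a higher linear position, fell on 8 runs, beside 3.80% of all runs. On all 3 scales 15 interval runs were called higher, beside 3.43% of all runs, with 3 on chromosome 3, 8 on chromosome 4 and 4 on chromosome 7. Of these 15, 13 were also called higher in log2 ratio after loess, 15 after quantile normalization and 11 after normexp background correction. In linear position the matching counts were 10, 11 and 13. With each array scaled by its median absolute deviation, log2 ratio called 15 of them higher and linear position 9. The normal means of the 15 runs ran from -0.56 to 1.46 in log2 ratio and reached at most 0.0900 in linear position.

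**Figure D2:**
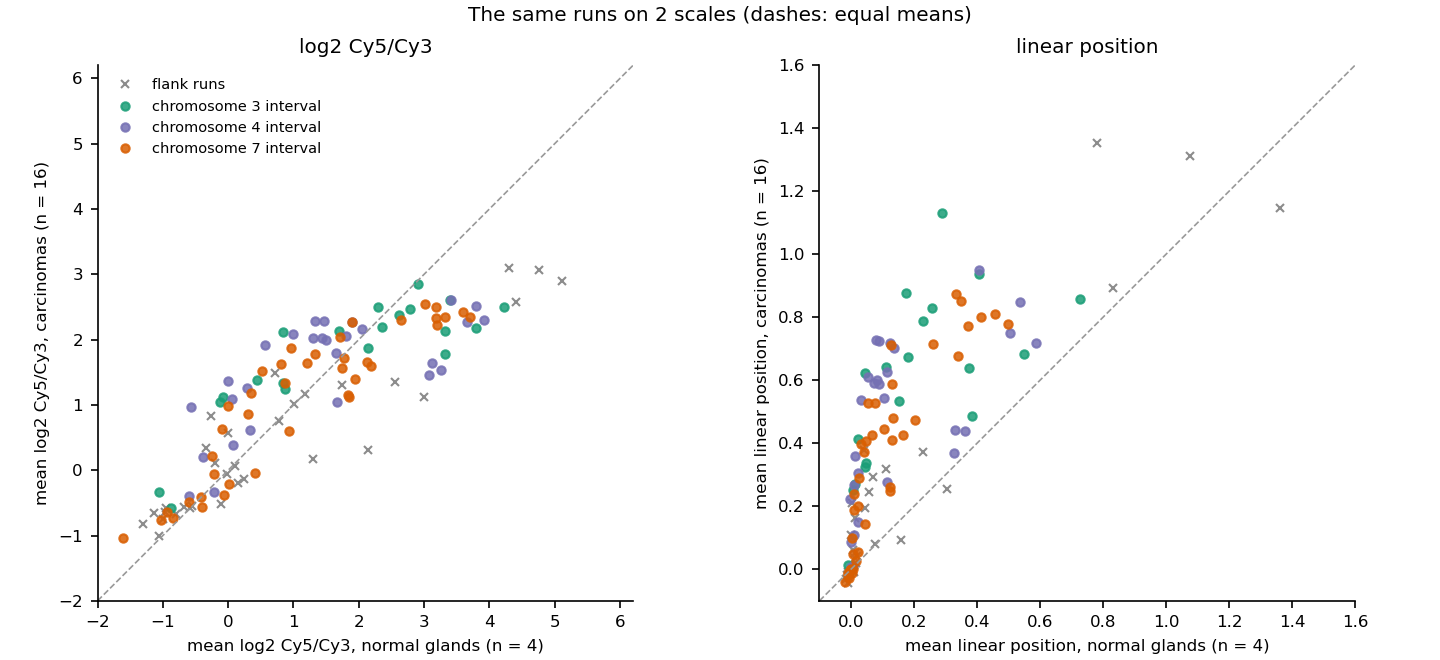
Mean over 16 carcinomas against mean over 4 normal glands for the 88 interval runs and 32 flank runs, in log2 Cy5/Cy3 (left) and linear position (right), with dashes where the means are equal. In log2 ratio, runs with a normal mean of at least 3 all lie below the dashes (19 interval runs), and 29 of the 38 with a normal mean from 0 to 2 lie above them.

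On chromosome 3, run9 at chr3:57294997-57295532, with 5 probes in the densest window, gained from a low level. Its log2 ratio was 1.44, 0.88, 0.90 and 0.12 in normal glands 1 to 4, and 1.15, 2.11 and 3.00 in the lowest, median and highest carcinoma (9 lowest, 8 highest). Its mean log2 ratio was higher by 1.27 (SE 0.28), with 14 of 16 carcinomas past the highest normal gland. It went in linear position from 0.0443 ± 0.0250 to 0.623 ± 0.156, without overlap. It was called higher on all 3 scales.

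Run5, chr3:57273176-57273600, also passed 0.5 in linear position in 13 carcinomas but differed less in log2 ratio. Its log2 ratio was 2.50, 1.80, 1.81 and 0.66 in normal glands and 1.49, 2.07 and 3.08 in the lowest, median and highest carcinoma. Only 2 carcinomas were above every normal gland in log2 ratio, while all 16 were in linear position, from 0.110 ± 0.0626 to 0.642 ± 0.167. It was called higher in linear position alone.

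Other chromosome 3 runs were high in some carcinomas and low in others. Run20, chr3:57367411-57367873, just past the densest window, was at 0.0289, 0.0261, 0.0232 and 0.0135 in linear position in normal glands. In carcinomas it ran from -0.01 in carcinoma 3 to 1.02 in carcinoma 15 with a median of 0.366, and 5 were over 0.5. Run12, chr3:57306613-57307073, was over 0.5 in 4 carcinomas, at 0.0604 in carcinoma 3 and 0.807 in carcinoma 8. Neither run was called on any of the 3 scales.

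Run19 and run17 had the highest normal levels of the chromosome 3 interval and the largest falls in log2 ratio. Run19, chr3:57360809-57361885, was at 5.25, 3.56, 4.07 and 4.03 in log2 ratio in normal glands, and at 1.58, 2.51 and 3.34 in the lowest, median and highest carcinoma. All 16 carcinomas were below every normal gland, and it was called lower. Linear position was 0.679, 0.771, 0.677 and 0.784 in normal glands and 0.617, 0.782 and 1.17 in carcinomas, overlapping and with no call. This was the interval run over 0.5 in every normal gland. Run17, chr3:57347353-57347799, averaged 3.80 ± 0.46 and 2.18 ± 0.58 in log2 ratio, and 0.549 and 0.683 in linear position, with no call on the latter. Their log2 ratio differed by -1.73 and -1.62, which stands beside a difference of -1.95 in the upper mode of the arrays.

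On chromosome 4 many runs were low in normal glands and high in most carcinomas in linear position. In log2 ratio 8 of its runs were called higher and 6 lower. Of its 28 runs, 10 had every normal gland under 0.2 and at least 8 carcinomas over 0.5 in linear position, with 2 such runs each on chromosomes 3 and 7. These 14 of 88 runs stand beside 1.86% of all runs. Run29, chr4:80475428-80476257, was over 0.5 in 15 carcinomas. Its linear position was 0.0745, 0.176, 0.0713 and 0.0380 in normal glands and 0.337, 0.744 and 1.11 in the lowest, median and highest carcinoma, carcinoma 2 being the lowest. In log2 ratio it was at 2.25, 1.71, 1.28 and 0.61 against 1.44, 2.25 and 3.31, a difference of 0.83 (SE 0.30) with 8 carcinomas above every normal gland.

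Run41, chr4:80545812-80546948, had 12 probes, the most on chromosome 4. In log2 ratio it was at 2.36, 1.5, 1.41 and 0.03 in normal glands, and at 1.39, 2.20 and 3.35 in the lowest, median and highest carcinoma. Its difference was 0.96 (SE 0.34), and 7 carcinomas passed the highest normal gland. Linear position went from 0.0799 ± 0.0541 to 0.727 ± 0.188, and all 16 passed the highest normal gland. Its probes did not all behave alike. The first probe averaged 2.93 ± 0.79 and 2.72 ± 0.58 in log2 ratio. The fifth, 514 bases further on, averaged 0.61 ± 1.23 and 2.30 ± 0.55. Between probes 2 and 10 the difference ran from 0.83 to 1.69, and at probes 11 and 12 it was 0.29 and 0.69. After the first probe the normal means lay between 0.61 and 1.65.

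Run39 and run40 lay between those runs. Run39, chr4:80534049-80535406, with 11 probes, averaged 1.89 ± 0.75 and 2.28 ± 0.64 in log2 ratio, and 4 carcinomas were above the highest normal gland. It moved from 0.123 to 0.719 in linear position and was over 0.5 in 14 carcinomas. Run40, chr4:80540549-80540933, was over 0.5 in 12 carcinomas and went from 0.0840 ± 0.0407 to 0.60 ± 0.212 in linear position. Neither was called in log2 ratio.

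Runs with a high normal level on chromosome 4 took another course. Run53, chr4:80775496-80775829, lay outside the densest window and was at 4.68, 3.41, 3.95 and 3.64 in log2 ratio in normal glands, against 1.69, 2.30 and 3.07 in the lowest, median and highest carcinoma. All 16 carcinomas were below the lowest normal gland in log2 ratio, and all 16 passed 0.5 in linear position, where the means were 0.589 and 0.717. Run27, chr4:80468655-80469106, was likewise below in 16 of 16 in log2 ratio, from 3.80 to 2.51. Its linear position was above the highest normal gland in 16 of 16, from 0.535 ± 0.0811 to 0.85 ± 0.0870. The 2 scales gave it calls of opposite direction.

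Run32, chr4:80503631-80504861, divided the carcinomas. It was at 4.06, 2.57, 3.07 and 3.35 in log2 ratio in normal glands, and ran from 0.29 in carcinoma 15 to 3.26 in carcinoma 12, with 14 carcinomas under the lowest normal gland. Linear position in normal glands was 0.290 to 0.476. In carcinomas it ran from 0.0897 in carcinoma 8 to 0.928 in carcinoma 5, with 8 above every normal gland and 7 over 0.5. Carcinoma 8, which had the largest share of high runs in each interval, was thus the lowest here.

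On chromosome 7 the interval means in linear position differed by 0.236, beside 0.365 on chromosome 3 and 0.323 on chromosome 4. Run77, chr7:141717635-141718802, with 11 probes, was at 1.25, 1.00, 0.84 and 0.78 in log2 ratio in normal glands and 1.05, 1.83 and 2.94 in the lowest, median and highest carcinoma. It was higher by 0.90 (SE 0.29), with 14 carcinomas above the highest normal gland, and was called on all 3 scales. Linear position rose from 0.0527 ± 0.0244 to 0.527 ± 0.202, over 0.5 in 8 carcinomas. Run95, chr7:141849109-141849478, was over 0.5 in 8 as well, but ran from 0.0197 in carcinoma 3 to 1.09 in carcinoma 8.

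Run79 and run73 passed 0.5 in 6 carcinomas each. Run79, chr7:141729645-141730972, went from 0.0675 ± 0.0346 to 0.428 ± 0.153 in linear position. Run73, chr7:141685348-141686100, averaged 1.74 and 1.57 in log2 ratio and 0.106 and 0.446 in linear position, with no call on any scale.

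At the top of the chromosome 7 interval stood run71 and run86. Run71, chr7:141483872-141484039, was at 4.63, 3.05, 3.52 and 3.61 in log2 ratio in normal glands and fell to 0.97, 2.50 and 3.1 in the lowest, median and highest carcinoma. It lay at a linear position of 0.438 to 0.578 in normal glands and over 0.5 in 15 carcinomas, the exception being carcinoma 3 at 0.166. Run86, chr7:141774017-141774401, averaged 3.60 and 2.42 in log2 ratio and 0.458 and 0.811 in linear position.

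Run88, chr7:141777418-141778769, had 13 probes, the most in any interval, and stayed under 0.5 in all 16 carcinomas. In log2 ratio it was at 2.17, 1.88, 1.751 and 1.6 in normal glands and 0.37, 1.05 and 1.79 in the lowest, median and highest carcinoma, with 13 under the lowest normal gland. Linear position went from 0.125 ± 0.0572 to 0.248 ± 0.0777. The run held a slope. Its first 3 probes averaged between -0.46 and 0.11 in log2 ratio in normal glands and between 0.01 and 0.06 in carcinomas. Its last 5 probes, from 842 bases onward, averaged between 2.97 and 4.43 in normal glands and between 1.70 and 2.67 in carcinomas. A mean over the run thus joins a low and a high part.

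Run7, chr3:57283029-57284376, the longest of chromosome 3 with 10 probes, had its normal peak in the middle. Its probes 5 and 6 were highest in normal glands, at 3.70 and 3.77 in log2 ratio, and lower by 1.27 and 1.32 in carcinomas. Its last probe averaged 1.09 ± 0.78 and 1.93 ± 0.76. Over the 10 probes the normal means spanned 1.09 to 3.77 and the carcinoma means 1.72 to 2.99. In run41 they spanned 0.61 to 2.93 and 1.61 to 2.72.

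**Figure D3:**
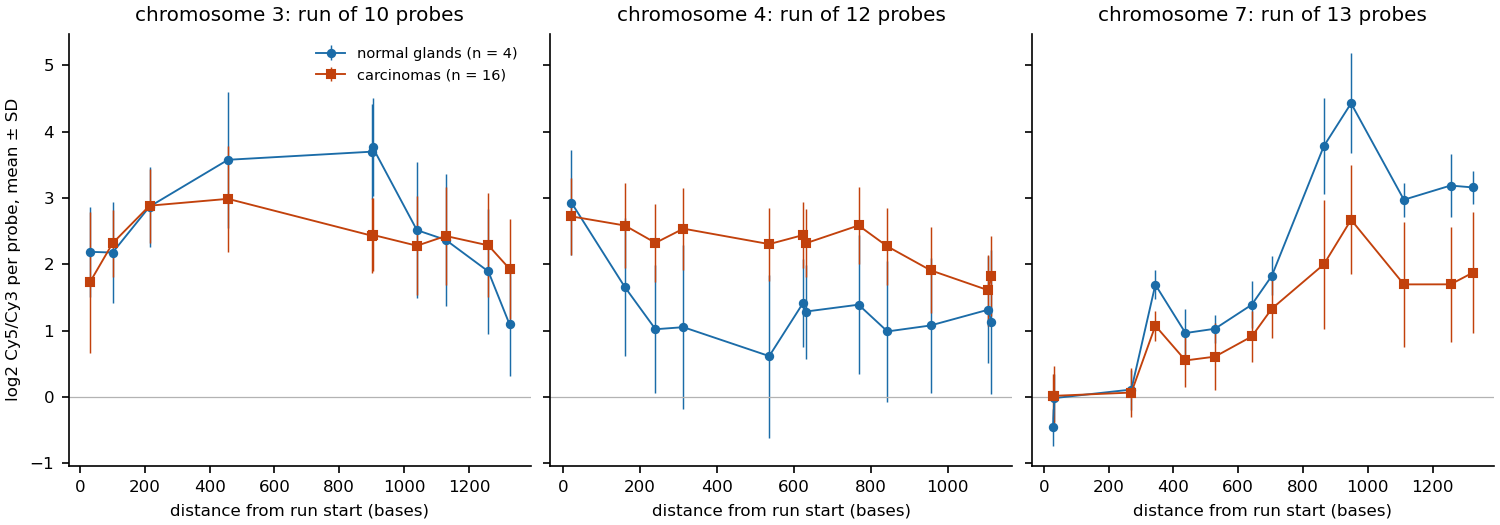
Log2 Cy5/Cy3 of each probe, mean ± SD, against distance in bases along the run with the most probes of each interval, run7 on chromosome 3, run41 on chromosome 4 and run88 on chromosome 7. In run41 the carcinoma means lie from 1.61 to 2.72 while the normal means drop after the first probe, from 2.93 to between 0.61 and 1.65, and in run88 both groups climb along the run with carcinomas lower at its end.

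In 21 of the 88 interval runs (23.9%) no carcinoma was over 0.5, beside 69.2% of all runs, with 15 of them on chromosome 7, 4 on chromosome 4 and 2 on chromosome 3, and 3 of the 21 lay in a densest window. In 8 runs (9.09%), 4 of them on chromosome 3, every carcinoma was over 0.5, beside 10.4% of all runs. The other 59 (67.0%) were over 0.5 in some carcinomas, beside 20.5% of all runs.

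The share of interval runs over 0.5 summed up each tissue. Over the 88 runs it was 2.27%, 10.2%, 5.68% and 9.09% in normal glands 1 to 4, and 20.5%, 42.0% and 65.9% in the lowest, median and highest carcinoma. Carcinomas 2, 3 and 1 had the smallest shares, at 20.5%, 23.9% and 31.8%, and carcinomas 8, 11 and 16 the largest, at 65.9%, 61.4% and 59.1%. The groups did not overlap. All other runs went from 12.3% ± 0.615 to 18.2% ± 3.58.

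By interval the order was chromosome 3, then 4, then 7. On chromosome 3 the share was 5.00%, 15.0%, 10.0% and 15.0% in normal glands, and 60.0% ± 13.4 in carcinomas, from 35.0% in carcinoma 2 to 85.0% in carcinoma 8. On chromosome 4 it was 0%, 10.71%, 7.14% and 14.3%, and 47.8% ± 19.4, from 7.14% in carcinoma 2 to 75.0% in carcinoma 8. Carcinoma 2 was thus within the range of normal glands there, and the other 15 were above it. On chromosome 7 it was 2.50%, 7.50%, 2.50% and 2.50%, and 33.9% ± 10.68, from 15.0% in carcinoma 3 to 50.0% in carcinoma 8. The chromosome 3 and chromosome 4 shares overlapped widely between carcinomas. In the flanks the carcinoma means were 0.893%, 16.7% and 21.5%, beside 0%, 11.1% and 18.8% in every normal gland.

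The difference in share is also given within scan days and without the densest windows. This is a description and no check, since the intervals were chosen with the group difference on these arrays in view. The difference in share was smaller without the densest windows, and it was not recomputed under other normalizations. The median difference in linear position of interval runs was 0.282, against 0.117 after loess and 0.138 after quantile normalization. Over all runs these medians were 0.0132, 0.0219 and 0.00386. With scaling by the median absolute deviation it was 0.252 in interval runs and 0.00957 over all runs, and with normexp 0.387 and 0.0277. Scan day 1 held only carcinomas 1 and 2. Within day 2 (2 normal glands, 6 carcinomas) the difference was 50.8, 47.6 and 35.0 percentage points on chromosomes 3, 4 and 7, and within day 3 (2 normal glands, 8 carcinomas) it was 51.9, 41.5 and 29.4. Over all days it was 48.8, 39.7 and 30.2. Outside the densest windows it was 23.8, 23.1 and 17 points. No slide held both groups, so slide and group cannot be told apart within a slide. Without carcinomas 7 and 8 the differences were 47.0, 37.9 and 29.6 points.

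**Figure D4:**
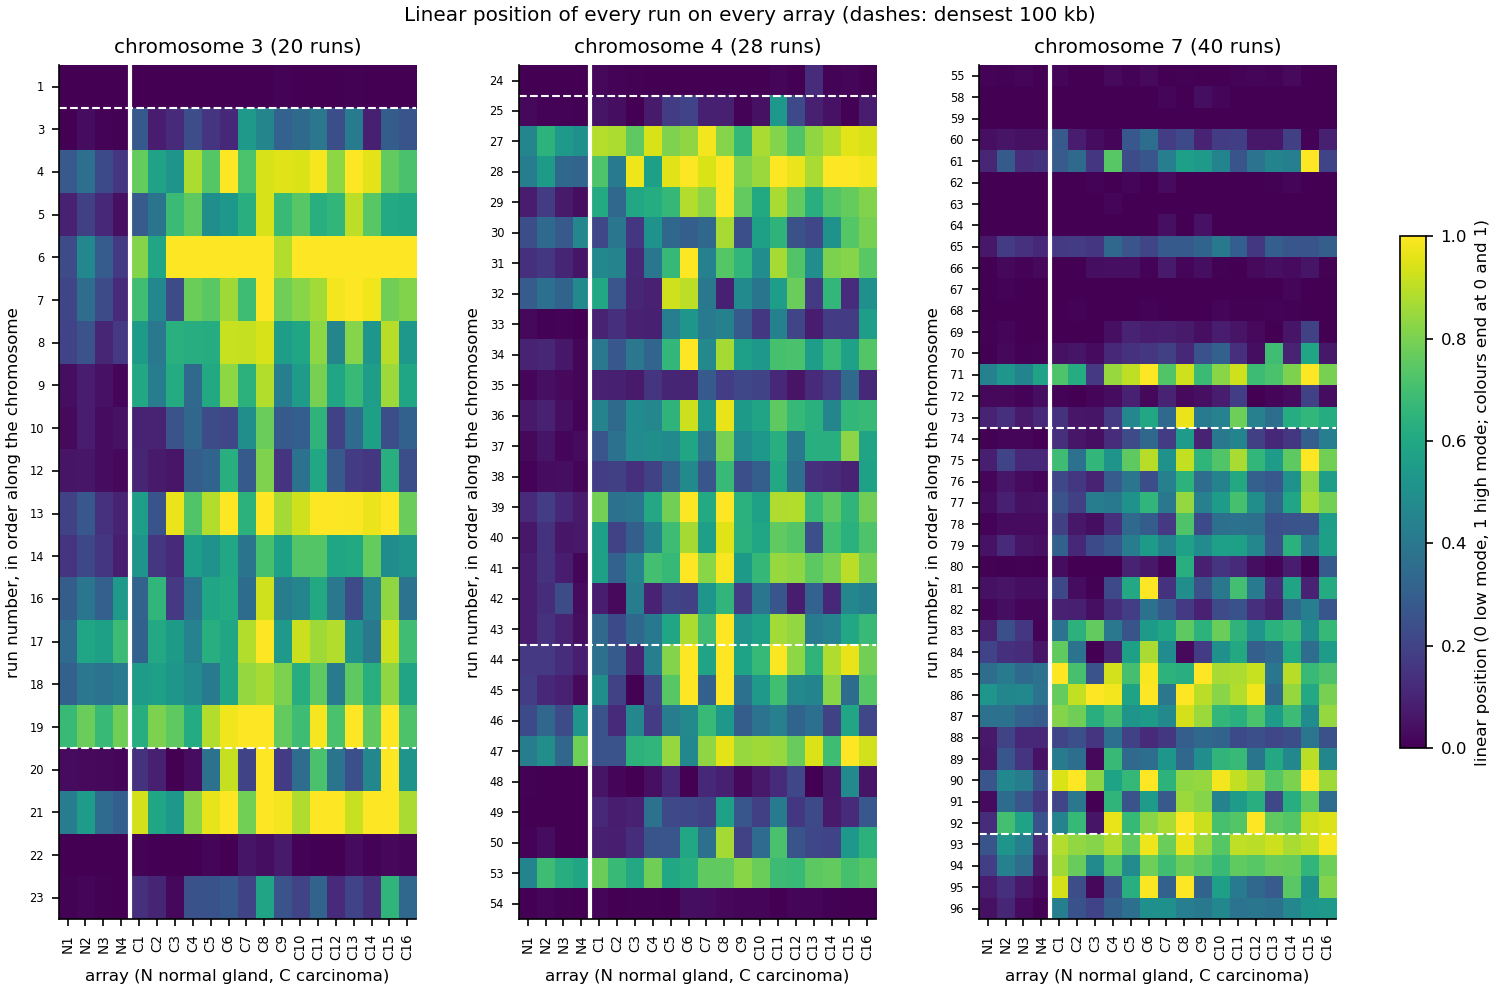
Linear position of each of the 88 interval runs (rows, run numbers in order along the chromosome) on each of the 20 arrays (columns, 4 normal glands left of the white line and 16 carcinomas right of it), with dashes around the densest 100 kilobases. Within the dashes most carcinoma columns are brighter than the normal columns, carcinomas 8, 11 and 16 have the most runs over 0.5, and run88 stays dark throughout.

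Across the 16 carcinomas the shares of the 3 intervals went together. Between chromosomes 3 and 4 Pearson's r was 0.872 and Spearman's rho 0.891, between 3 and 7 they were 0.796 and 0.779, and between 4 and 7 they were 0.865 and 0.919. Each interval also followed all other runs of its array, with r of 0.928, 0.873 and 0.838 and rho of 0.926, 0.93 and 0.819 on chromosomes 3, 4 and 7. These 6 relations are a description over 16 carcinomas, with no p. Without the 2 carcinomas farthest from the median, r ran from 0.740 to 0.910. Within scan day 2 (6 carcinomas) r ran from 0.590, for chromosome 7 with all other runs, to 0.920. Within scan day 3 (8 carcinomas) it ran from 0.809 to 0.960. All shares of an array use the same 2 modes, so a shift of the modes moves them together and no relation at all is not the value to compare with. With the mean log2 ratio, which does not use the modes, r between intervals was 0.955, 0.894 and 0.927, with array range still shared.

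**Figure D5:**
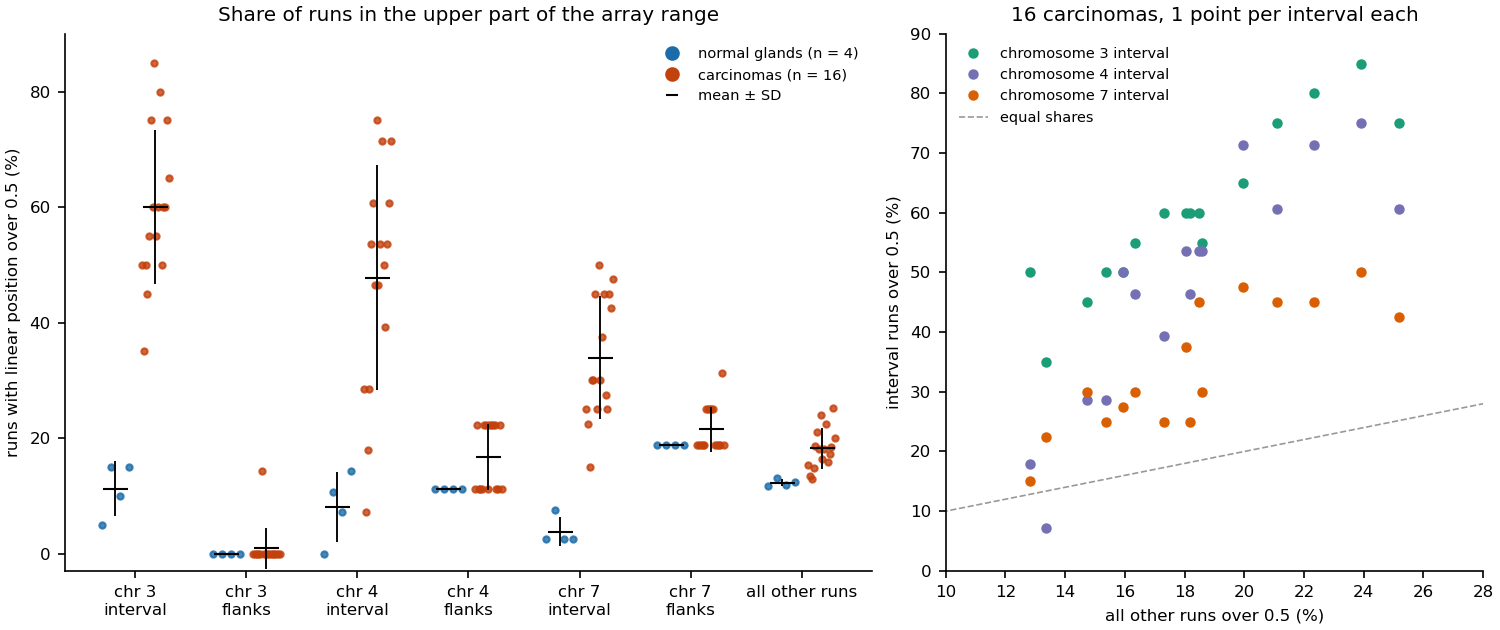
Percent of runs with a linear position over 0.5 per array (left; 4 normal glands and 16 carcinomas, with mean ± SD) in each interval, its flanks and all other runs, and (right) interval share against the share of all other runs in the 16 carcinomas, with dashes at equal shares. Every interval point lies above the dashes except chromosome 4 in carcinoma 2, at 7.14%.

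Neighbouring runs of a densest window were compared in the same way, as a description. Over 16 carcinomas the median r of linear position between adjacent runs was 0.506 on chromosome 3, 0.455 on chromosome 4 and 0.519 on chromosome 7. Between runs that were not adjacent it was 0.442, 0.482 and 0.265. All points share the arrays and their modes.

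Input signal is described by itself, with no test, since it is the denominator of the ratio that was in view when the intervals were chosen. The mean log2 Cy3 signal of the chromosome 3 interval, relative to its array, was -0.10 ± 0.05 in normal glands and -0.26 ± 0.17 in carcinomas. The difference was -0.16, with 12 of 16 carcinomas below the lowest normal gland and 2 above the highest. On chromosome 4 it was -0.13 (9 below, 4 above) and on chromosome 7 -0.12 (10 below, 2 above). Within scan days 2 and 3 the difference was -0.27 and -0.03 on chromosome 3, -0.19 and -0.02 on chromosome 4, and -0.16 and -0.03 on chromosome 7.

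Carcinomas 1, 2, 4, 5 and 6 were low in input in all 3 intervals, at -0.47 to -0.23 relative to the normal mean. Carcinoma 16 stood at -0.42 on chromosome 3, but at 0.04 and 0.03 on chromosomes 4 and 7. Taken as the median over the probes, the difference was 0.000327, -0.04 and -0.08 on chromosomes 3, 4 and 7. Set against the flanks, input differed by 0.0693 on chromosome 4, with 13 of 16 carcinomas above the highest normal gland, and by -0.13 on chromosome 7, with 16 of 16 below the lowest. On chromosome 3 it differed by -0.09, with 10 below and 1 above. The differences of the ratio ran from -1.73 to 1.52 over the called interval runs. The part of input in the enrichment was not tested.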

How the data were processed

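Methylated DNA was measured on 20 two-colour Agilent CpG island arrays. Per the file headers, Agilent Feature Extraction 10.7.3.1 produced the deposited intensities, background-subtracted and dye-normalized, and a log10 ratio of Cy5 over Cy3. The deposited value table holds log2 ratios that equal the scanner log10 ratio rescaled, within 7.94e-07 over 91897 probes, with column medians from -0.48 to -0.08.

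From these, 1565 control spots and 187 outlier values (0 in the intervals) were left out, the median of each array was removed from log2 of Cy5 over Cy3, and probes were averaged per run. No loess or quantile step was used. Runs were fitted with limma 3.58.1 in R 4.3.3 over all 13556 runs, checked on simulated data. Other values used Python 3.11.15, numpy 2.4.6, pandas 2.3.3 and scipy 1.17.1, and figures matplotlib 3.10.9. The number of arrays limits precision. Named runs were, per interval, the 4 with the most carcinomas over 0.5 among runs with every normal gland under 0.2, the 2 whose log2 ratio fell most, the 2 with the highest normal level and the run with the most probes, 21 runs in all. Members, lists and the windows were chosen with earlier results of these data known. Permutation tests of input signal and of relations between intervals are not reported, because both use values that were in view in that choice. Alternatives covered normalization, thresholds, windows, blocks and left-out samples. Probe gene names were not used here.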

Additional observations from a re-analysis of the deposited data

Results flagged for a closer look

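In 67 sets of 4 normal glands, 7 held a gland whose gap to its nearest neighbour passed Dixon's 95% critical value. By chance about 5% of such sets do. The sets hold the same 4 glands and overlap in their runs, so they are not independent, and no excess is read from the count. Normal gland 2 was high in 4 of them. It had a linear position of 0.255 over the chromosome 3 interval, where the nearest gland had 0.184, and 0.229 for that interval minus its flanks, where the nearest had 0.167. It had 7.50% of chromosome 7 runs over 0.5, beside 2.50% in each other gland, and a linear position of 0.145 in run40, beside 0.0687. Normal gland 4 was low in the other 3. Its chromosome 7 interval minus flank was -0.31 in log2 ratio, beside 0.09. Its mean percentile was 60.7 on chromosome 7, beside 64.4, and 63.6 over the 3 intervals, beside 68.3.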

How the results depend on the processing

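Of 605 recomputed values, 559 stayed on their side of the threshold or, where no test was made, moved by less than 1 SD (counts: by under 1.5 times). For input signal and the relations across carcinomas, the side was set by permutation tests. Those tests are not reported, since they use values in view when the intervals were chosen. For these values nothing is read from the 559. Of these 559, 25 changed sign: the log2 difference of the interval on chromosome 3 (12 of 28) and chromosome 7 (8 of 28), and interval minus flank on chromosome 3 (5 of 29). The cause of the other changes was not tested. The 17 interval runs called higher in log2 ratio became 29 with loess, 35 with quantile normalization, 27 with scaling by the median absolute deviation, 11 with normexp, 8 at an adjusted p under 0.01, 50 in linear position and 29 as percentiles. Over all runs the 1576 such calls became 1512 with scaling by the median absolute deviation, 523 with normexp and 634 at 0.01. The 17 called lower in log2 ratio became 4, 3, 0 and 3 with loess, quantile normalization, linear position and percentiles. The 50 called higher in linear position became 27, 25 and 33 with loess, quantile normalization and deviation scaling, 29 at 0.01, 17 in log2 ratio and 29 as percentiles. Over all runs the 2318 such calls became 1103 with deviation scaling and 892 at 0.01. The 0 called lower in linear position became 11 and 2 with loess and quantile normalization, 17 in log2 ratio and 3 as percentiles. It became 1 with array weights and 1 with scan day as a block. Over all runs the 600 calls lower became 2178 and 704 in these 2 settings.

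A further fit took the replicate number as a block (replicate block). Only numbers 1 to 4 occur in both groups, so its group difference rests on carcinomas 1 to 4 and the 4 normal glands. It called 8 interval runs higher in log2 ratio and 0 in linear position, where 39 had an unadjusted p under 0.05. Over all 13556 runs it called 1069 higher in log2 ratio and 0 in linear position, so the 0 is not particular to the intervals. Across runs, deviations from the group mean in samples of the same number had r of 0.34, -0.29, 0.10 and -0.04. No r of samples with unlike numbers was set beside these, so whether the numbers pair samples cannot be told.

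With loess, interval minus flank was 0.66 on chromosome 3 (0.08 without) and 0.26 on chromosome 7 (0.56 without). Without the densest window the upper share difference was 23.8 points on chromosome 3 and 17 on chromosome 7. Densest window minus rest was 41.7, 18.9 and 28.1 points on chromosomes 3, 4 and 7. A 50-kilobase window gave 16.3 on chromosome 3 and 2.74 on chromosome 4, and a 200-kilobase window gave 59.7 on chromosome 3 and 42.8 on chromosome 7. Input minus flank differed by -0.0948, 0.0693 and -0.125 on chromosomes 3, 4 and 7, the chromosome 4 sign turning. As the median over probes, the chromosome 3 input difference turned to 0.000327.

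Leaving out 1 sample at a time gave 8 to 19 runs called higher and 13 to 23 lower in log2 ratio. Over all runs these counts ran from 891 to 2183 and from 2842 to 3331. In linear position it gave 30 to 54 higher and 0 to 1 lower, with 951 to 2742 and 163 to 668 over all runs. The log2 difference ran from -0.14 to 0.23 on chromosome 3, 0.07 to 0.47 on chromosome 4 and -0.13 to 0.11 on chromosome 7. The chromosome 3 input difference ran from -0.19 to -0.15.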
